A study of Mus musculus with 3 samples.

Results

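The cells described here were 2631 macrophages from regenerating mouse muscle with transcripts of Atp6v0d2, Rnf128 or both. They were found among 19974 macrophages, which in turn were among 35247 cells kept from 38748 barcodes of a droplet-based (10x Genomics) single-cell RNA sequencing experiment. The study took tibialis anterior muscles of C57/BL6J mice at day 4 after injury with BaCl2, which kills muscle fibres, and compared young PBS (vehicle), old PBS and old rMETRNL (recombinant meteorin-like protein, a secreted factor, given after the injury) animals. All 3 groups were injured, and no uninjured muscle and no young rMETRNL group was analysed here. Each group was 1 library made from pooled samples of several animals, so age and treatment cannot be told apart from the library in any value below. Comparisons between groups therefore carry no test, and their 95% intervals cover counting error only. Comparisons between cells of the same library could be tested over the 3 libraries.

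A kept cell had at least 500 genes detected and under 10% of its unique molecular identifiers (UMIs, 1 per captured transcript) from mitochondrial genes. A macrophage had at least 3 UMIs in sum from Adgre1, Csf1r and Fcgr1, which encode the surface proteins F4/80, the CSF1 receptor and CD64, and none from Pdgfra, Cd209a or Cd3e, which mark fibro/adipogenic progenitors (FAPs), dendritic cells and T cells. A member had at least 2 UMIs in sum from Atp6v0d2 and Rnf128, under 5 from the monocyte gene Ly6c2, under 3 from the resident-type genes Cd163, Lyve1 and Cbr2, and under 5 from the cycling genes Mki67, Top2a, Cdk1, Birc5 and Cenpf. The measured values of these 17 genes chose the cells, so their levels are given only as a description. Young PBS gave 533 members, old PBS 1254 and old rMETRNL 844. They were compared with all 17343 other gated macrophages and, more closely, with 8486 matched macrophages, which met every condition except that their sum of Atp6v0d2 and Rnf128 was under 2.

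Atp6v0d2 (chr4:19876841-19922605, minus strand, GRCm38) encodes the d2 subunit of the membrane sector of the vacuolar proton pump, which acidifies lysosomes. It is best known from osteoclasts, the bone-resorbing relatives of macrophages, and from lipid-laden macrophages. Rnf128 (chrX:139563316-139673145, plus strand) encodes GRAIL, a membrane-anchored ubiquitin ligase first described in unresponsive T cells. Spp1 (osteopontin, a secreted matrix protein and cytokine), Gpnmb (a lysosomal and surface glycoprotein) and Fabp5 (a fatty acid chaperone) belong to the programme of lipid-associated macrophages, cells that take up lipid and cell debris in fat, atheroma, brain and injured muscle. Injured muscle fills with monocytes within days, and these become macrophages that clear dead fibres before they support new ones.

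The libraries held 12168, 12568 and 14012 barcodes and 218059089, 179295668 and 228966697 UMIs in young PBS, old PBS and old rMETRNL. A member had a median of 20831, 20280.5 and 20385.5 UMIs, and a matched macrophage 13459, 12579 and 12610.5, so members were deeper cells in every library. Because a deeper cell is more likely to show 2 UMIs of any gene, some results are also given after each cell was thinned to 5000 UMIs. The kinds of member, the gene lists and the folds of genes other than the label markers are given at full depth only. Between 121 and 143 barcodes of a library recurred in another, and 4, 7 and 4 members carried such a barcode. The automatic threshold of the doublet caller marked 0 cells in every library. Taking the highest doublet scores at a rate of 0.8% per 1000 barcodes of the library marked 7.50%, 7.81% and 9.60% of members, against 7.68%, 8.71% and 8.28% of matched macrophages.

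Members made up a larger share of macrophages in old PBS than in either of the other libraries. Of the gated young PBS macrophages 8.01% were members (95% exact binomial interval 7.37% to 8.68%). The share was 20.2% for old PBS (19.2% to 21.2%) and 11.9% for old rMETRNL (11.1% to 12.7%). The old PBS share was 2.52 times the young PBS share (2.27 to 2.79), and the old rMETRNL share was 0.590 times the old PBS share (0.540 to 0.644). Both ratios use the old PBS library. The old rMETRNL share was 1.49 times that of young PBS (1.33 to 1.66). None of the 3 intervals of the shares overlapped, but they hold no spread between animals.

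Depth, doublet calls and the denominator did not turn these directions. With cells thinned to 5000 UMIs and the whole rule applied again to the thinned counts, the shares were 4.46%, 13.9% and 7.73%, and the old to young PBS ratio was 3.13. The rest of the gate also differed between libraries: cells with at least 5 Ly6c2 UMIs were 16.5%, 8.92% and 15.7% of gated macrophages in young PBS, old PBS and old rMETRNL, and Cd163, Lyve1 and Cbr2 cells were 21.2%, 23.4% and 32.6%. With both of these and the cycling cells taken out, members were 13.9%, 32.3% and 24.8% of members and matched macrophages together. On that denominator the ratio of old rMETRNL to old PBS was 0.768 (0.703 to 0.839), nearer to 1 than among all gated macrophages. As a share of every kept cell, FAPs and other lineages included, members were 4.67%, 11.3% and 6.60%.

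**Figure D1:**
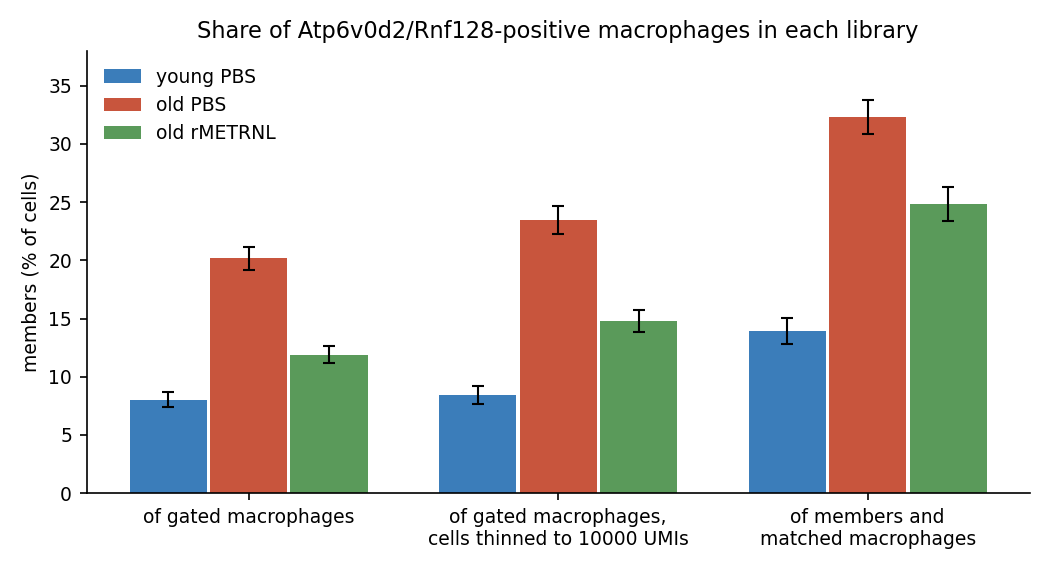
Members as a percentage of cells (y axis) in young PBS, old PBS and old rMETRNL, as a share of gated macrophages, of gated macrophages thinned to 10000 UMIs a cell, and of members and matched macrophages together (x axis). Bars are single libraries with 95% exact binomial intervals that cover counting error only, and old PBS is highest in each set (20.2%, 23.4% and 32.3%).

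Among cells that met every other condition, 369, 449 and 387 cells held exactly 1 UMI of Atp6v0d2 or Rnf128 in young PBS, old PBS and old rMETRNL, just outside the threshold, and 139, 209 and 176 held exactly 2, just inside it. Cells just inside had a Gpnmb level of 2161, 2655 and 2554 CPM (UMIs of a gene per 1000000 UMIs summed over a set of cells), and cells just outside 1698, 2095 and 2133. For Spp1 the values were 3047, 2592 and 4209 inside and 2741, 2009 and 2784 outside. Mmp12, the macrophage elastase gene, was 194, 104 and 515 CPM inside and 49.5, 108 and 130 CPM outside. Spp1 and Gpnmb were higher inside than outside in all 3 libraries, and Mmp12 in young PBS and old rMETRNL.

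Along that range the lipid-associated genes climbed with the sum of Atp6v0d2 and Rnf128. From cells with 0 UMIs to cells with at least 20, Gpnmb went from 928 to 3629 CPM in young PBS. In old PBS it went from 1161 to 5259 CPM and in old rMETRNL from 1135 to 4379 CPM. It rose from each of the 7 steps to the next in all 3 libraries, as did Fabp5, which went from 1671 to 6181, from 1730 to 8036 and from 1933 to 8867 CPM. Spp1 also ended higher than it began, at 5756, 5717 and 6482 CPM against 1331, 969.5 and 1685, but not at every step. Mmp12 went from 29.8 to 2124, from 70.1 to 1154 and from 77.4 to 1632 CPM. Median UMIs per cell rose along the same steps, from 13246 to 36760 in young PBS. These cells were also thinned to 5000 UMIs each and placed on the steps by their thinned counts. Gpnmb was then 942, 1302 and 1228 CPM at a sum of 0. It was 3062, 4730.3 and 4640.0 CPM at a sum of at least 5, a step that held 39, 155 and 90 cells. Fabp5 in young PBS fell from 5702 CPM at a sum of 3 to 4 to 4882 CPM at the last step, as did Spp1 and Cd36. In old PBS and old rMETRNL Fabp5 rose at every step.

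**Figure D2:**
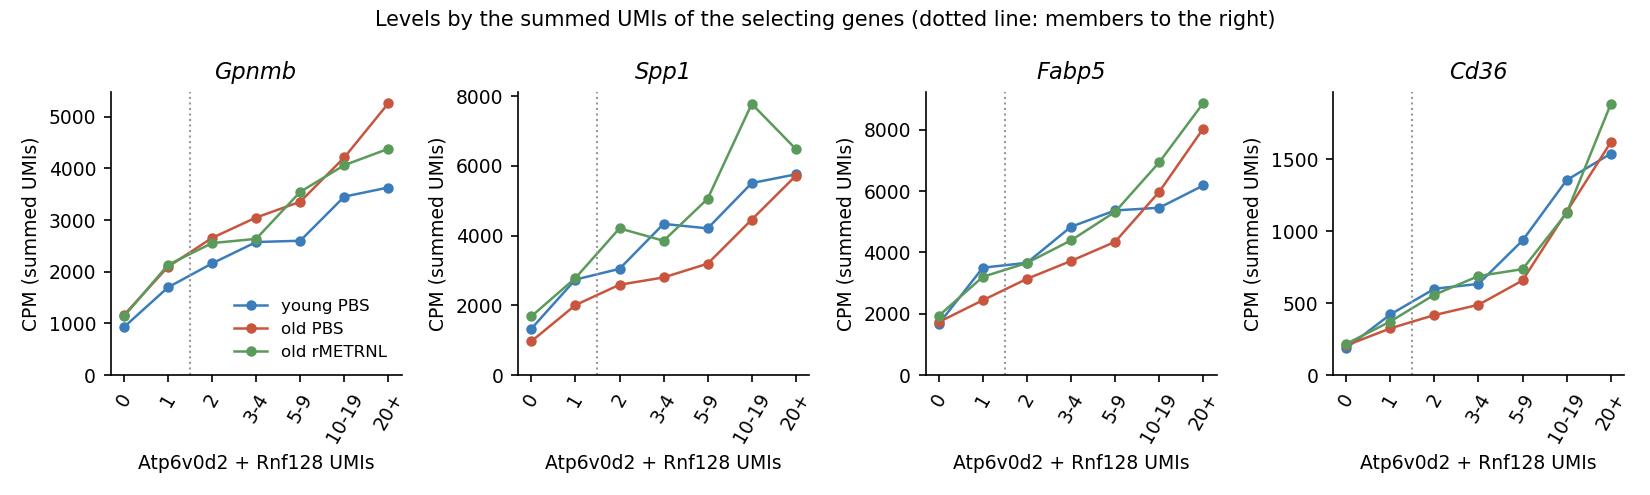
Levels of Gpnmb, Spp1, Fabp5 and Cd36 (CPM of summed UMIs, y axes) against the summed UMIs of Atp6v0d2 and Rnf128 per cell (x axes), among members and matched macrophages, with 1 line per library and members to the right of the dotted line. Gpnmb and Fabp5 rise from each step to the next in all 3 libraries, and Spp1 does so in old PBS.

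Most members were chosen through Atp6v0d2. Of young PBS, old PBS and old rMETRNL members, 48.4%, 59.2% and 52.7% had Atp6v0d2 and no Rnf128 UMI. Cells with Rnf128 alone were 15.8%, 4.23% and 8.89%, and cells with both were 35.8%, 36.6% and 38.4%. As counts, Rnf128 alone gave 84, 53 and 75 members of 6657, 6219 and 7098 gated macrophages, fewest in old PBS. Atp6v0d2 alone gave 258, 742 and 445 members, and both genes 191, 459 and 324. The higher share in old PBS thus rested on cells with Atp6v0d2. Whether it came from more such cells or from a higher Atp6v0d2 level per cell was not tested. The 3 kinds of member were not alike. In cells with Atp6v0d2 alone, Spp1 stood at 2748, 2696 and 3885 CPM, against 5836, 5166 and 6917 CPM in cells with both. Cells with Rnf128 alone were close to the latter, at 5585, 4964 and 6870 CPM. Cd36, a scavenger receptor that takes up oxidised lipid and fatty acids, showed the same order, with 432, 489 and 463 CPM in cells with Atp6v0d2 alone and 1436, 1395 and 1434 CPM in cells with both. Lpl, which encodes the lipase that frees fatty acids from triglyceride, was 689, 760 and 782 CPM in the former and 1890, 2056 and 1981 CPM in the latter. Acp5, the tartrate-resistant phosphatase of osteoclasts, went the other way, at 880, 364 and 341 CPM in cells with Atp6v0d2 alone and 299, 267 and 242 CPM in cells with both. Its young PBS value in cells with Atp6v0d2 alone was 385 CPM without 12 cells that held at least 5 Mmp9 UMIs, which are described below.

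Detection of the selecting genes outside macrophages set the background. Atp6v0d2 was seen in 16.8%, 38.5% and 27.3% of gated macrophages in young PBS, old PBS and old rMETRNL. FAPs, which should lack it, showed it in 0.788%, 3.18% and 1.66% of cells at higher median depths of 26147.5, 23575 and 25364.5 UMIs. Rnf128 was seen in 12.3%, 17.8% and 17.8% of gated macrophages and in 1.01%, 0.490% and 0.728% of FAPs. The label's other markers were also present. Gpnmb was detected in 95.5%, 98.9% and 96.4% of members and in 75.4%, 75.6% and 74.5% of matched macrophages. At 5000 UMIs these shares were 90.8%, 97.2% and 94.6% of members, 67.3%, 70.3% and 68.8% of matched macrophages, and 12.8%, 22.4% and 19.1% of FAPs. Spp1 was detected in 97.2%, 96.3% and 97.5% of members and in 78.7%, 77.4% and 82.3% of matched macrophages. Gpnmb and Spp1 were thus raised in members over a background that already held both genes in most macrophages.

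Members were not the only source of these transcripts. In young PBS, old PBS and old rMETRNL they held 23.5%, 40.7% and 27.5% of all Gpnmb UMIs of gated macrophages, and 21.9%, 40.6% and 26.9% of the Spp1 UMIs. Of the 10% of gated macrophages with the highest Gpnmb level, 28.1%, 49.3% and 35.4% were members. The typical member was still well above the typical matched cell. The median over single members was 2246, 3033 and 2801 Gpnmb CPM, against 374, 501 and 480 CPM over matched macrophages.

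Within libraries, members were compared with matched macrophages by edgeR's quasi-likelihood test on UMIs summed per library and cell set, with the library as a block. A gene was called at a Benjamini-Hochberg adjusted p under 0.05 and a change of at least 2-fold. Members were chosen on counts of the same cells, so a gene that varies with Atp6v0d2 or with depth is free to follow, and the p-value speaks only of how alike the 3 libraries were. Of 13482 genes tested, 212 were higher in members (1.57%) and 557 lower (4.13%). At the adjusted p alone, without the fold limit, 20.1% were higher and 19.7% lower. Against all other gated macrophages, 130 of 14520 genes were higher (0.895%) and 643 lower (4.43%). The same members and matched macrophages, chosen at full depth, were also thinned to 5000 UMIs a cell. Then 142 genes were higher than in matched macrophages, and 114 of these were among the 212. As the cell sets did not change, this cannot show how the choice of deeper cells shaped the calls.

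All 3 label markers that the rule had not used were higher in members. Spp1 was 4464, 3877 and 5512 CPM in members of young PBS, old PBS and old rMETRNL and 1519, 1183 and 1884 CPM in matched macrophages. This was a log2 fold of 1.60 ± 0.05 (SE, 3 libraries, edgeR quasi-likelihood, Benjamini-Hochberg adjusted p = 1.42e-07). Gpnmb was 2817, 3811 and 3455 CPM against 1030, 1352 and 1316 CPM, a log2 fold of 1.44 ± 0.04. Fabp5 was 5035, 5237 and 5810 CPM against 1915, 1876 and 2164 CPM, a log2 fold of 1.43 ± 0.04. Reads of Fabp5 and of its near-identical processed copies may have been shared in the counting. The members lay above the matched cells in all 3 libraries for each gene, and the ranges did not overlap. With the same cells thinned to 5000 UMIs, the log2 folds were 1.65, 1.54 and 1.47 for Spp1, Gpnmb and Fabp5. Against all other gated macrophages, at full depth, they were 1.17, 1.23 and 1.03.

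Of 18 other genes of lipid-associated macrophages, 5 were called higher and 0 lower, with a median log2 fold of 0.67 against -0.01 over all genes tested. Mmp12 was 714, 484 and 665 CPM in members and 32.4, 77.9 and 86.9 CPM in matched macrophages, a log2 fold of 3.31 ± 0.29. Its transcripts sat in few cells, since 5 members held 36.2%, 18.0% and 29.8% of the Mmp12 UMIs of a library. Cd36 was 974.2, 911.3 and 975.3 CPM against 219, 231 and 246 CPM (log2 fold 2.04 ± 0.04), and Lpl was 1262, 1361 and 1379 CPM against 282, 378 and 447 CPM (1.87 ± 0.08). Cd9, a tetraspanin, and Lgals3, the gene of the lectin galectin-3 that gathers at damaged lysosomes, had log2 folds of 1.15 ± 0.06 and 1.14 ± 0.03. Trem2, the lipid-sensing receptor of these cells, was 1256, 1380 and 1336 CPM in members and 856, 884 and 918 CPM in matched macrophages. Its log2 fold of 0.57 ± 0.04 stayed under the 2-fold limit although the groups did not overlap. Apoe, which carries cholesterol out of cells, was lower in members at 19786, 24022 and 22050 CPM against 33455, 31045 and 32735 CPM, also by less than 2-fold (-0.57 ± 0.07).

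**Figure D3:**
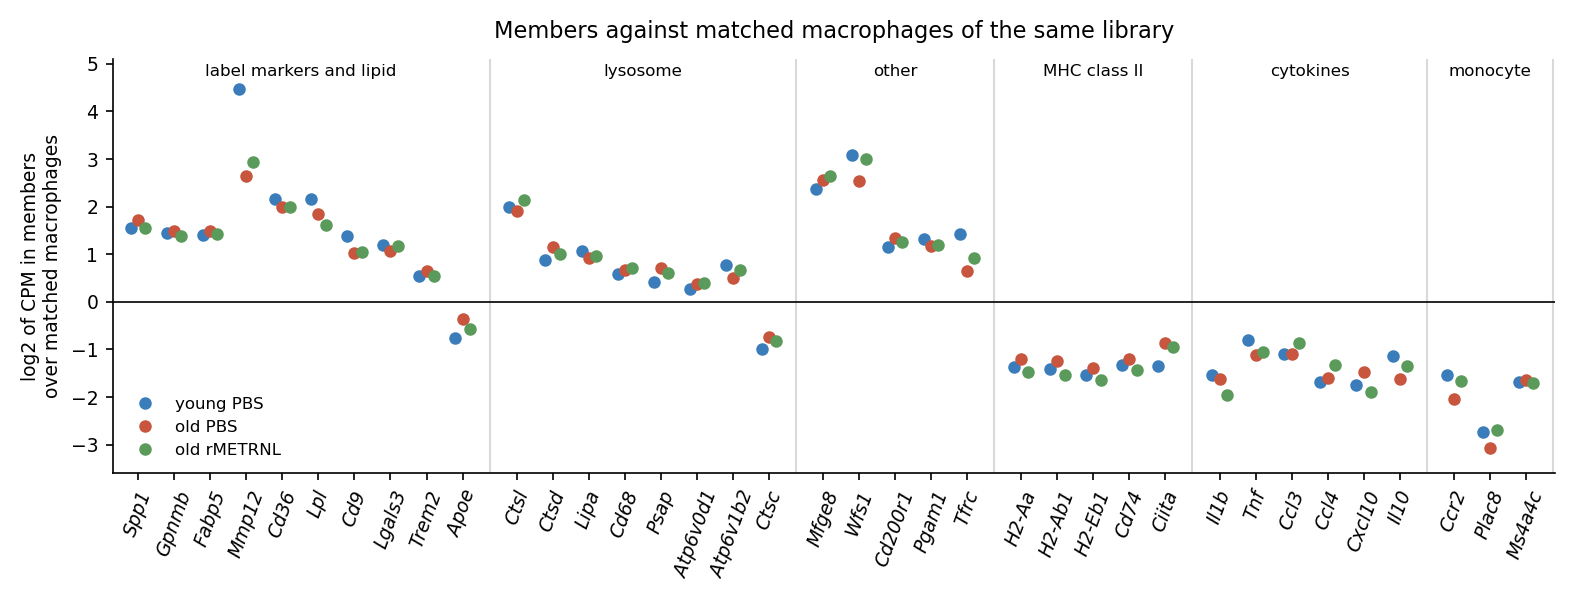
Log2 of the CPM in members over that in matched macrophages of the same library (y axis) for named genes grouped by role (x axis), with 1 point per library. Of the lipid and lysosome genes plotted, Apoe and Ctsc lie below 0 and the others above 0 in all 3 libraries, and the MHC class II, cytokine and monocyte genes lie below 0 in all 3.

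The lysosome, where Atp6v0d2 and Gpnmb act, was raised in part. Of 23 lysosomal enzyme and membrane genes, 2 were called higher and 0 lower, with a median log2 fold of 0.30. Ctsl, the cysteine protease cathepsin L, was 3606, 2912 and 4163 CPM in members and 901, 773 and 940 CPM in matched macrophages (log2 fold 2.01 ± 0.05). Ctsd, the aspartic protease cathepsin D, was 6698, 7641 and 7603 CPM against 3620, 3429 and 3795 CPM, and its log2 fold of 1.01 ± 0.05 lay at the 2-fold limit. Lipa, which splits cholesterol esters in the lysosome, came close at 0.99. Ctsc, the cathepsin that activates serine proteases of leukocytes, ran the other way at 514, 453 and 453 CPM against 1019, 757 and 807 CPM (-0.86).

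Of 17 other subunit genes of the proton pump, the V-ATPase, 0 were called at 2-fold by edgeR, and the median log2 fold was 0.35. Without the fold limit 14 were higher at an adjusted p under 0.05, to be read against 20.1% of all genes. Atp6v0d1, the widely expressed d1 form that d2 can replace in the pump, was 221, 256 and 243 CPM in members and 183, 198 and 184 CPM in matched macrophages (0.34 ± 0.05). Atp6v0a1, a subunit of the membrane sector, had the larger log2 fold of 0.89 ± 0.06. Mitf, a transcription factor of lysosomal and osteoclast genes, was 39.2, 39.8 and 41.1 CPM against 29.5, 30.4 and 32.9 CPM (0.37 ± 0.05). Among 11 MiT/TFE factors and their regulators and 5 other ligases of the family of Rnf128, 0 were called in either direction, with medians of 0.11 and 0.06. Cholesterol efflux and LXR target genes (8, median 0.01), sterol synthesis genes (12, median 0.01) and fatty acid handling genes (10, median 0.20) also gave 0 calls. For the V-ATPase genes and these 5 lists edgeR's unadjusted p under 0.05 with 2-fold and DESeq2's call also gave 0 genes. At the adjusted p alone the MiT/TFE list had 5 genes higher and 4 lower, the ligases 0 and 2, cholesterol efflux 2 and 2, sterol synthesis 2 and 4, and fatty acid handling 5 and 1. Over all genes 20.1% were higher and 19.7% lower at that limit.

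Large folds were also found outside the lipid and lysosome lists. Mfge8, whose secreted product bridges dying cells to phagocytes, was 187, 394 and 344 CPM in members and 36.4, 66.4 and 55.3 CPM in matched macrophages (log2 fold 2.52 ± 0.06). It was the only called gene of 11 efferocytosis genes, whose median was -0.15. Wfs1, which encodes the endoplasmic reticulum protein wolframin, was 27.1, 39.3 and 38.7 CPM against 3.21, 6.80 and 4.82 CPM (2.84 ± 0.10). Mt3, a metallothionein, had a log2 fold of 5.35 ± 0.32, but 5 members held 84.8%, 88.9% and 87.5% of its UMIs in the 3 libraries. Fabp7, another fatty acid chaperone, and Tenm4, a teneurin, had log2 folds of 2.62 and 2.86.

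Metabolic and growth genes gave a mixed list. Of 14 glycolysis and hypoxia genes, 1 was called higher, Pgam1, at 389.5, 291 and 373 CPM against 155, 129 and 164 CPM (1.22 ± 0.04), while the median was 0.57. Iron and haem genes (8, median 0.44) and NRF2 antioxidant genes (8, median 0.29) gave 0 calls by edgeR or DESeq2 at 2-fold, with 6 and 3 genes higher at edgeR's adjusted p alone and 8 and 3 at the unadjusted p. Of 16 growth and matrix signals, 1 was called higher, the protease Mmp19, at 91.6, 231 and 135 CPM against 37.9, 149 and 58.8 CPM (1.01 ± 0.10). Igf1, the growth factor that macrophages supply to regenerating fibres, was 291, 287 and 288 CPM against 199, 196 and 175 CPM, a rise of less than 2-fold (0.60). Metrnl, whose protein product was the treatment, was 186, 204 and 211 CPM against 173, 202 and 202 CPM (0.05 ± 0.04, edgeR quasi-likelihood adjusted p = 0.341 by Benjamini-Hochberg).

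Inflammatory, monocyte and antigen-presentation genes were lower in members. Of 15 inflammatory genes, 8 were called lower and 0 higher, with a median log2 fold of -1.005, and DESeq2 called 7. Il1b, the inflammasome cytokine, was 185, 261 and 152 CPM in members and 540, 799 and 595 CPM in matched macrophages (-1.71 ± 0.07). Cxcl10, an interferon-induced chemokine for T cells, was 140, 77.7 and 109 CPM against 470, 214 and 406 CPM (-1.71). Tnf was 77.2, 83.8 and 68.1 CPM against 136, 181 and 142 CPM and lay at the limit (-1.005). Il10, an anti-inflammatory cytokine, was lower too, at 43.5, 42.2 and 35.2 CPM against 95.5, 129 and 90.1 CPM (-1.39 ± 0.08). It was the 1 gene called lower of 9 anti-inflammatory genes, of which 2 were called higher, but the median log2 fold of the 9 was -0.51. At an adjusted p under 0.05 without the fold limit 7 were lower and 2 higher by edgeR. Over all genes 19.7% were lower and 20.1% higher at that limit. Genes of the stress of tissue dissociation were lower as well, with 4 of 10 called and a median of -0.89, and their part in these values was not tested.

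Monocyte genes other than Ly6c2 gave 5 of 9 lower and 0 higher, with a median of -1.49. Ccr2, the receptor that brings monocytes into tissue, was 53.5, 39.4 and 52.7 CPM in members and 154, 161 and 167 CPM in matched macrophages (-1.75). Plac8 was 19.4, 8.62 and 18.9 CPM against 128, 72.6 and 122 CPM (-2.83 ± 0.08). MHC class II genes, which present antigen to CD4 T cells, gave 5 of 7 lower (median -1.32). Against all other gated macrophages edgeR and DESeq2 called 0 of the 7 at 2-fold (median -0.64). At edgeR's adjusted p alone 5 of them were lower there, as were 15.8% of all genes. H2-Aa was 1068, 1866 and 1018 CPM in members and 2775, 4260 and 2819 CPM in matched macrophages (-1.35 ± 0.06). Cd74, the invariant chain that guides class II molecules, was 2603, 4006 and 2382 CPM against 6511, 9150 and 6435 CPM (-1.32). Interferon-response genes gave 2 of 9 lower (median -0.81). Against all other gated macrophages edgeR called 0 of the 9 at 2-fold and DESeq2 1 lower (median -0.57). At edgeR's adjusted p alone 9 were lower there. Resident-type genes that the rule had not used gave 2 of 9 lower (median -0.31). Cell cycle genes gave 2 of 18 lower (median 0.05), both sets having been cleared of cycling cells by the rule.

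Markers of other cells were few. Of the FAP, endothelial, dendritic and mast cell lists 1 gene each was lower in members than in matched macrophages, of 4 red cell genes 4 were lower (median -2.81), and of 3 neutrophil genes 1 was higher, S100a8 (log2 fold 1.36). Of the muscle, T and NK and B cell lists 0 were called by edgeR or DESeq2 at 2-fold, and 2 muscle genes were higher at edgeR's adjusted or unadjusted p alone. DESeq2 also called 0 of the dendritic and mast cell genes. Summed FAP markers stood at 384, 298 and 282 CPM in members, against 22870, 24125 and 21927 CPM in kept cells outside the gate. The haemoglobin genes Hba-a1 and Hba-a2 are near-identical copies whose reads may have been shared.

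Some members carried high levels of osteoclast genes, and those found by Mmp9 were mostly in young PBS. Of 12 osteoclast and fusion genes tested against matched macrophages, 3 were called higher by edgeR and 2 by DESeq2, with a median log2 fold of 0.56. Mmp9, the gelatinase of osteoclasts and neutrophils, was 158 CPM in members of young PBS but 0.833 and 2.58 CPM in the other libraries. Its log2 fold of 6.37 ± 0.63 fell to 1.95 without the young PBS library and to 0.58 without cells holding at least 5 Mmp9 UMIs. Those cells were 13 members of young PBS, 1 of old PBS and 1 of old rMETRNL. The old PBS cell had 14047 CPM of Ctsk and 12288 CPM of Acp5, whereas the old rMETRNL cell had 0 CPM of Ctsk, 130 CPM of Acp5 and 1366 CPM of Gpnmb. The 13 young PBS cells held 82.3% of the Ctsk and 44.2% of the Acp5 UMIs of the members of that library. Ctsk, the bone-degrading cathepsin K, was 433, 102 and 93.8 CPM in members and 15.8, 24.2 and 18.1 CPM in matched macrophages (log2 fold 3.09 ± 0.44). Without the 15 cells its log2 fold was 2.13. Slc9b2, a sodium-proton exchanger of osteoclasts, went from 4.10 to 2.26, and Acp5 from 0.82 to 0.53. The limit of 5 Mmp9 UMIs did not take in every member with much Ctsk: 9 members of young PBS, 20 of old PBS and 14 of old rMETRNL had at least 20 Ctsk UMIs, a limit set after seeing the data, and fewer than 5 of Mmp9. Of these, 2 in young PBS and 1 in old rMETRNL had no Gpnmb UMI. The old rMETRNL cell had 1 Mmp9, 87 Ctsk, 73 Acp5 and 24 Atp6v0d2 UMIs.

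The 13 cells of young PBS were chosen by their Mmp9 counts, so their Mmp9 level and share only describe that choice, and the values below carry no test. Beside the other 520 members of that library they had 9868 CPM of Ctsk against 79.4 and 6360 CPM of Acp5 against 302. Nfatc1, the transcription factor that drives osteoclast formation, was 479 CPM against 32.0, and the fusion genes Ocstamp and Dcstamp were 163 CPM against 5.68 and 115 CPM against 5.43. Car2, Oscar and Itgb3 were also far apart, at 118 CPM against 1.53, 20.4 CPM against 0.0848 and 22.6 CPM against 2.21. Clcn7, a lysosomal chloride transporter, lay close at 76.9 CPM against 68.4, as did its partner Ostm1 at 40.7 CPM against 46.7. Atp6v0d2 was 708 CPM against 268. Rnf128, by contrast, was 2.26 CPM against 76.2, Gpnmb 149 CPM against 2917, Fabp5 477 CPM against 5206, and Spp1 941 CPM against 4596. Their median was 32830 UMIs against 20597, and 1 of the 13 was called a doublet. They met the rule through Atp6v0d2 but did not carry the label markers at the level of the other members. Over all kept cells, 18, 4 and 2 cells of young PBS, old PBS and old rMETRNL had at least 5 Mmp9 and 20 Ctsk UMIs. The 13 cells are 2.44% of young PBS members. With every gated cell of at least 5 Mmp9 UMIs left out, the shares above hardly moved, with an old to young PBS ratio of 2.57.

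**Figure D4:**
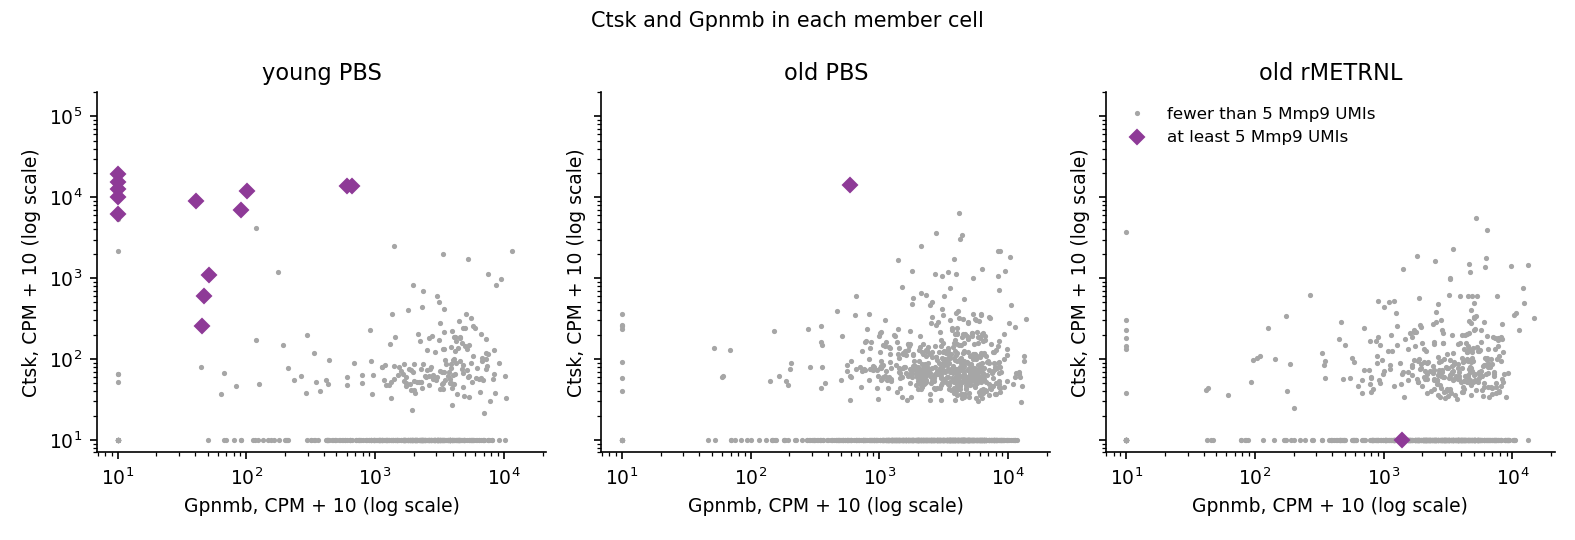
Ctsk level against Gpnmb level in each member cell (CPM + 10, both axes log) for the 3 libraries, with cells holding at least 5 Mmp9 UMIs as diamonds. The 13 such cells of young PBS lie to the left of most members, 5 of them at a Gpnmb level of 0, and most lie above the other members in Ctsk.

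Between libraries, the levels within members were set side by side without a test, and a gene was counted when it had at least 100 UMIs in the libraries compared and a ratio past 1.5-fold. Of 9929 genes, 268 were higher (2.7%) and 408 lower (4.11%) in old PBS than in young PBS members. Of 10156 genes, 255 were higher (2.51%) and 205 lower (2.02%) in old rMETRNL than in old PBS members. Both sets of ratios share the old PBS members. In matched macrophages 152 of the 268, 153 of the 408, 112 of the 255 and 86 of the 205 were past 1.5-fold in the same direction. The label markers and the 18 lipid-associated genes gave 0 calls in either contrast. Mmp12, the macrophage elastase and one of the 18, was close to the limit at 0.679 times in old PBS over young PBS members, and it passed it at 0.655 without the cells holding at least 5 Mmp9 UMIs, at 0.634 without doublet calls and at 0.632 with at least 3 UMIs of Atp6v0d2 and Rnf128. Gpnmb was 1.35 times as high in old PBS as in young PBS members (1.34 to 1.37) and Spp1 0.869 times (0.860 to 0.878). Spp1 was 1.42 times as high in old rMETRNL as in old PBS members (1.41 to 1.43), and 1.59 times in matched macrophages. The share of members among gated macrophages differed past 1.5-fold in both contrasts. Among members and matched macrophages alone, the share for old rMETRNL over old PBS (0.768) did not pass 1.5-fold. The levels of Spp1, Gpnmb and Fabp5 within members passed it in neither contrast. Over all gated macrophages of young PBS, old PBS and old rMETRNL, Spp1 was 2243, 2450 and 3055 CPM, highest in old rMETRNL. There Gpnmb was 1321, 2404 and 1870.5 CPM and Fabp5 2650, 3525 and 3507 CPM. These genes thus did not all follow the share of members.

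Interferon-response genes were lower in old PBS members. Of 9 such genes, 8 were lower and 1 higher in old PBS than in young PBS members, with a median log2 ratio of -1.08, and 7 were higher and 0 lower in old rMETRNL than in old PBS members, with a median of 0.87. Over all genes tested these medians were -0.03 and 0.03. Ifit3, which encodes an antiviral protein that interferon induces, stood in young PBS, old PBS and old rMETRNL members at 120, 32.6 and 93.2 CPM. The ratio was 0.272 (0.250 to 0.296) for old over young PBS and 2.86 (2.63 to 3.099) for old rMETRNL over old PBS. Isg15, a ubiquitin-like modifier, was 126, 59.4 and 108 CPM. Its ratios were 0.472 (0.440 to 0.506) and 1.82 (1.71 to 1.95). The old PBS value was the lowest of the 3 for both genes, and the other libraries were nearer to each other than to old PBS. Matched macrophages showed similar ratios, 0.289 and 2.70 for Ifit3 and 0.463 and 2.02 for Isg15. The 1 gene that was higher, the chemokine Cxcl9, was 28.7, 58.4 and 41.6 CPM, and 5 cells held 61.1% to 68.8% of its UMIs in each library. Matched macrophages went the other way for Cxcl9, with a ratio of 0.702.

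The promoters of Ifit3 and Isg15 are shown because they hold the sequence that interferon-activated factors read. They run from 250 bases before to 50 after the start of transcription (RefSeq, GRCm38.p6, 5′ to 3′ along the gene). Capitals mark matches to GAAA, a pair of bases of any kind and GAAA again, on either strand, the core of the interferon-stimulated response element, of which those in Isg15 overlap. The motif stood in 4 of 8 interferon-response genes with a promoter in the table (Ifit1, Ifit3, Isg15 and Rsad2) and in 3.44% of all 32851 promoter windows of that length. Ifit3 lies at chr19:34583279-34583578 on the plus strand and Isg15 at chr4:156200769-156201068 on the minus strand.
Ifit3: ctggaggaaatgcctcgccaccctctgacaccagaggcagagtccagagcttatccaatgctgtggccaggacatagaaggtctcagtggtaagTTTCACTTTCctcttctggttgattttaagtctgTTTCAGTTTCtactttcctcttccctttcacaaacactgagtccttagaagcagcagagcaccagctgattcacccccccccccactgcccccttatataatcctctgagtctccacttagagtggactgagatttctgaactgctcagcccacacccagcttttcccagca
Isg15: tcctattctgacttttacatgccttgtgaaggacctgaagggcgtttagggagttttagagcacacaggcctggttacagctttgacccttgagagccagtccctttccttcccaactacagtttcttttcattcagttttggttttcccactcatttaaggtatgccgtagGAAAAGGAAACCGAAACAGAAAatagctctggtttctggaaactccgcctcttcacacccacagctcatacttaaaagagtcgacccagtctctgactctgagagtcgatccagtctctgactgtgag
The matches began 156 and 122 bases before the start in Ifit3 and 78, 72 and 66 bases before it in Isg15.

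MHC class II genes took the opposite course. Of 7 genes, 4 were higher in old PBS than in young PBS members (median log2 ratio 0.62) and 4 were lower in old rMETRNL than in old PBS members (-0.75). H2-Aa, which encodes a class II alpha chain, was 1068, 1866 and 1018 CPM in young PBS, old PBS and old rMETRNL, which gave ratios of 1.75 (1.71 to 1.78) and 0.545 (0.536 to 0.555). H2-Eb1, which encodes a class II beta chain, was 772, 1311 and 751 CPM, which gave ratios of 1.70 (1.66 to 1.74) and 0.573 (0.561 to 0.584). Cd74 was 2603, 4006 and 2382 CPM. Old PBS was the highest for each of these genes, and old rMETRNL lay within 10% of young PBS. Matched macrophages had ratios of 1.54 and 0.662 for H2-Aa and 1.53 and 0.675 for H2-Eb1.

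The promoters of H2-Aa and H2-Eb1 (RefSeq, GRCm38.p6, same window) are shown because class II genes share a promoter box. Capitals mark TGATTGG, the Y box that the factor NF-Y binds, searched on both strands. It stood in 3 of 4 class II genes with a promoter in the table (H2-Aa, H2-DMb1 and H2-Eb1) and in 7.82% of all windows. H2-Aa lies at chr17:34287774-34288073 on the minus strand and H2-Eb1 at chr17:34305617-34305916 on the plus strand.
H2-Aa: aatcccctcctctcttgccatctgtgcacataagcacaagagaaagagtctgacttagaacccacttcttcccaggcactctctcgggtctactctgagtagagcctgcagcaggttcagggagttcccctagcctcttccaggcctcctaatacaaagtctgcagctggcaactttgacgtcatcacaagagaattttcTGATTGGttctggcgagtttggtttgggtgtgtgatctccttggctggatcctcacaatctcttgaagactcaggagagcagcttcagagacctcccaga
H2-Eb1: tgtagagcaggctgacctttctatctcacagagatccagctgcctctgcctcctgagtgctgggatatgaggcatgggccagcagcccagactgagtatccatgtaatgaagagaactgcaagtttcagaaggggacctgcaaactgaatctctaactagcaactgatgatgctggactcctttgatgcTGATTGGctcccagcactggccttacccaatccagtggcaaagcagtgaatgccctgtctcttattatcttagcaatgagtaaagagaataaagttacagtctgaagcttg
The match began 50 bases before the start in H2-Aa and 61 bases before it in H2-Eb1.

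**Figure D5:**
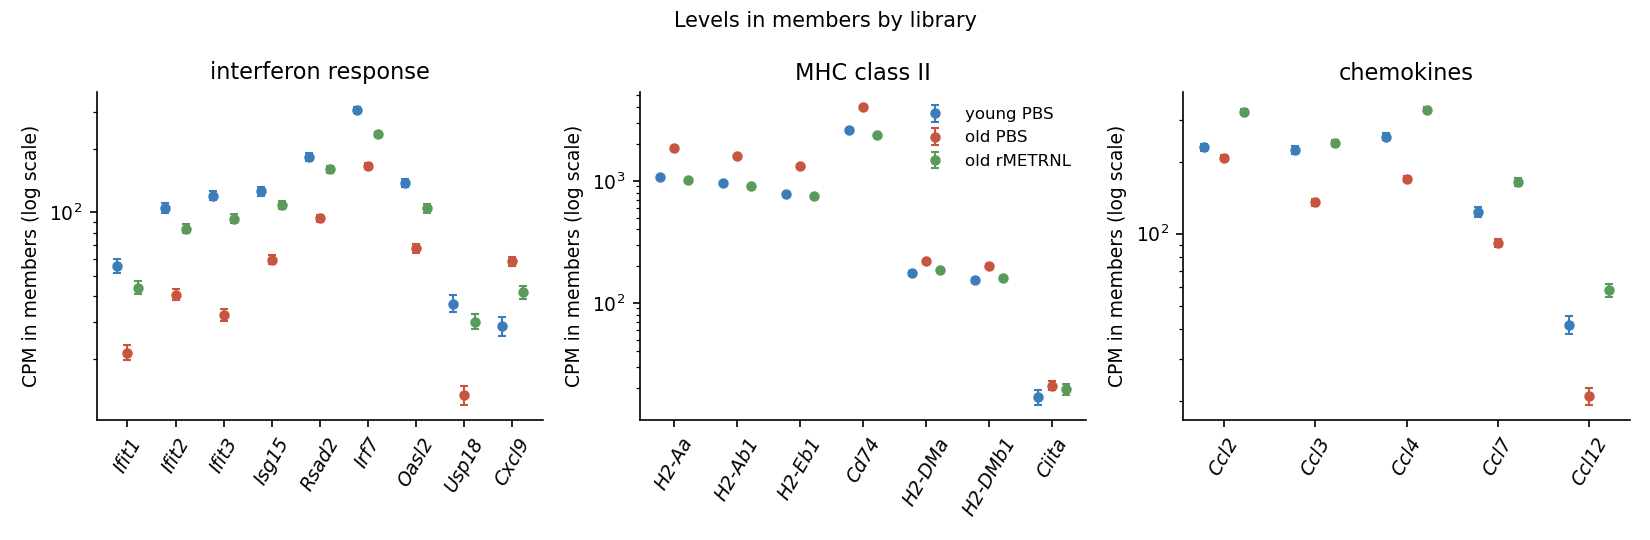
Levels within members (CPM, log axes) of interferon-response genes, MHC class II genes and 5 chemokine genes in young PBS, old PBS and old rMETRNL, with 95% exact Poisson intervals that cover counting error only. Old PBS is lowest for 8 of 9 interferon-response genes and for the chemokine genes, and highest for the 7 class II genes.

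Single secreted factors of members differed in both directions. Of 14 inflammatory genes, 2 were higher and 3 lower in old PBS than in young PBS members. In old rMETRNL against old PBS members 4 were higher and 2 lower. The median log2 ratio was 0.06 in both contrasts, against -0.03 and 0.03 over all genes tested. Ccl12, a monocyte attractant, was 41.5, 20.9 and 58.0 CPM in young PBS, old PBS and old rMETRNL, a ratio of 2.78 (2.51 to 3.08) for old rMETRNL over old PBS that was 1.34 in matched macrophages. Ccl4, an attractant of lymphocytes and monocytes, was 255, 170 and 331 CPM, with a ratio of 1.95 (1.88 to 2.03). Ccl2 and Ccl7, which bind the monocyte receptor CCR2, had ratios of 1.56 and 1.80 in members and 1.03 and 1.005 in matched macrophages, a difference that was not tested. Il1b was 185, 261 and 152 CPM, with a ratio of 0.584 for old rMETRNL over old PBS. Tnf was 77.2, 83.8 and 68.1 CPM and passed the fold in neither contrast. Pf4, platelet factor 4, was 1980, 1182 and 1936 CPM, with ratios of 0.597 and 1.64 that were close to those of matched macrophages (0.656 and 1.58).

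Single genes were higher in old PBS members, while 2 of 15 growth and matrix signals were higher and 1 lower. Mmp19 was 91.6, 231 and 135 CPM. The ratios of 2.53 (2.37 to 2.69) and 0.583 (0.556 to 0.611) were nearer to 1 than the 3.94 and 0.394 of matched macrophages. Slc7a11, the cystine importer of glutathione synthesis, was 38.6, 87.5 and 38.7 CPM, with ratios of 2.27 and 0.442. Olr1, a receptor for oxidised LDL, was 8.34, 22.7 and 12.9 CPM, with ratios of 2.72 and 0.567. Nlrp3, the inflammasome sensor, was 61.6, 117 and 56.0 CPM, with ratios of 1.90 and 0.479. Abca1, the cholesterol exporter, was 400, 624 and 413 CPM, with ratios of 1.56 and 0.662. For these 5 genes old PBS was the highest of the 3 libraries and the matched macrophages moved in the same direction. Mfge8, by contrast, was nearer to old PBS than to young PBS in old rMETRNL, at 187, 394 and 344 CPM. Its matched macrophages had the same order of libraries. Gdf3, a TGF-beta family ligand of repair macrophages, was 16.6, 35.0 and 50.8 CPM. Retnla, a marker of alternatively activated macrophages, was 35.9, 111 and 80.7 CPM, but 5 cells held 56.0% to 74.3% of its UMIs.

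Glycolysis genes were lower in old PBS members, with 6 of 14 past 1.5-fold, 0 higher and a median log2 ratio of -0.56. Matched macrophages moved the same way as a list, with a median of -0.34. Aldoa, the aldolase of glycolysis, was 708, 456 and 581 CPM in young PBS, old PBS and old rMETRNL (ratio 0.644), and Pgk1 was 287, 171 and 235 CPM (0.598). Slc16a3, the lactate exporter, was 30.8, 13.8 and 25.1 CPM, with ratios of 0.449 and 1.82, against 0.957 and 1.17 in matched macrophages. In old rMETRNL against old PBS members 2 of the 14 were higher, and the median was 0.34, against 0.26 in matched macrophages. Hmox1, which breaks down haem, was 650, 354 and 349 CPM, with a ratio of 0.545 in members and 0.958 in matched macrophages for old over young PBS.

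The osteoclast list depended on the 13 cells. With them, 6 of 10 genes were lower in old PBS than in young PBS members, with a median log2 ratio of -0.84. Without the cells holding at least 5 Mmp9 UMIs, 0 were lower and 1 higher, and the median was -0.05. Acp5 then went from a ratio of 0.599 to 0.970 and Ctsk from 0.236 to 1.0045.

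Transcripts of mature muscle moved with the libraries. Summed over the list, members of young PBS, old PBS and old rMETRNL held 74.7, 272 and 127 CPM, matched macrophages 73.4, 221 and 116 CPM, and kept cells outside the gate 701, 2548 and 828 CPM. Of 6 muscle genes with enough UMIs, 4 were higher and 1 lower in old PBS than in young PBS members. In the same contrast 0 of 5 endothelial genes were higher and 3 lower, and of 7 FAP genes 2 were higher and 1 lower. Of the 10 dissociation stress genes, 3 were lower in old PBS members and 2 higher in old rMETRNL members, among them Hspa1a at 762, 420 and 747 CPM, a gene that may share reads with its copy Hspa1b. The part of these lists in the values above was not tested.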

How the data were processed

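The authors deposited, for each of the 3 libraries, a matrix of UMI counts per gene and cell. The submitters' processing notes name Cell Ranger 3.1.0 and 5.0.0 and the build mm10, and which version made which library is not given in the sources used here. Gene positions were taken from GENCODE annotation of GRCm38, in which 32235 of 32285 identifiers were found.

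The members, the gene lists and the tests were chosen with earlier results of these data known. UMIs were summed per library and cell set, and members were compared with other gated or matched macrophages with edgeR 4.0.16 (TMM factors, filterByExpr, quasi-likelihood test, library as a block, Benjamini-Hochberg adjustment, R 4.3.3). The 17 genes of the rule were left out of these tests. The p-values measure the spread over 3 libraries of different groups. With 1 library per group no test between groups was made, and CPM of summed UMIs, exact Poisson, exact binomial and exact conditional intervals were computed with scipy 1.17.1. Genes named were those of the lists, plus the 15 highest and 10 lowest called genes of each within-library comparison and the 10 highest and 10 lowest ratios between libraries, with genes below their level outside the gate left out of the latter. Not all of them are printed, and 1 of them is not reported here. Cells with at least 5 Mmp9 UMIs were singled out, and left out as an alternative, after seeing the data. Doublets were scored with the Scrublet method in scanpy 1.11.5 and kept. The scripts were tested on simulated counts. Alternatives were thinning to 5000 or 10000 UMIs, stricter cell filters, other thresholds of the rule, other minimum UMIs, DESeq2 1.42.0, no library block, no gene filter, other scaling and leaving out each library.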

Additional observations from a re-analysis of the deposited data

How the results depend on the processing

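The higher share of members in old PBS kept its direction in all 9 alternatives, with ratios to young PBS of 2.02 to 3.13 and of old rMETRNL to old PBS of 0.555 to 0.768. None of these alternatives chose members by Atp6v0d2 alone or by Rnf128 alone. The old to young PBS ratio moved beyond its interval to 3.13 with cells thinned to 5000 UMIs, to 2.02 with at least 1 UMI of Atp6v0d2 and Rnf128, and to 2.84 with at least 3. The old rMETRNL to old PBS ratio moved to 0.768 among members and matched macrophages alone. The counts of genes higher and lower in members were within 1.5 times of the reported ones in 11 alternatives each, at 142 to 239 and 378 to 736 against matched macrophages and 98 to 164 and 508 to 806 against other gated macrophages. Without 1 library they were 199 to 239 and 442 to 651, and 106 to 164 and 508 to 661. No paired analysis was possible because each group has 1 library, and the block used above joins cell sets of the same library. With a minimum of 50 UMIs, 403 genes were higher and 642 lower in old PBS than in young PBS members, and 445 higher and 338 lower in old rMETRNL than in old PBS members. With a minimum of 400 UMIs these counts were 117, 153, 84 and 78, since fewer genes could be tested. Without the cells holding at least 5 Mmp9 UMIs, an alternative chosen after seeing the data, the old to young PBS ratios of Ctsk and Cyp2s1 turned from 0.236 and 0.239 to 1.0045 and 1.01. Calls at the 2-fold limit (Ctsd, Tnf and Mmp19) were lost in some alternatives. With 1 library per group, no alternative can separate age or treatment from the animals pooled.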
